A study of Naumovozyma castellii with 14 samples.

Results

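Among the 5599 protein-coding genes measured in the budding yeast Naumovozyma castellii, 2 are described here. NAM7 (NCAS_0A07730) encodes Upf1, whose deletion the labels of the upf1 strains state. NCAS_0C00230 was picked by its values: it was the only mRNA read well above background in upf1 cells and nearly absent from both libraries of the dcr1 upf1 double mutant. That is the pattern that deletion of the Dicer gene would leave. Neither the deposited table nor the RefSeq gene table gives NCAS_0C00230 a gene name, and no feature was found under the names DCR1 or AGO1, so it is called by its ID throughout.

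Upf1 is an RNA helicase. Together with Nmd2 (Upf2) and Upf3 it drives nonsense-mediated decay (NMD), which destroys mRNAs whose translation ends at a premature stop codon. The decay needs translation, so cycloheximide, which blocks elongating ribosomes, also blocks it, besides its other effects on the cell. Dicer is an RNase III enzyme that cuts double-stranded RNA into small RNAs, which guide the Argonaute protein to matching transcripts. N. castellii has kept this RNA interference pathway, and S. cerevisiae has lost it.

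Total RNA was sequenced from 14 libraries in 5 groups, after ribosomal RNA depletion and strand-specific library preparation. All strains share the background MATalpha ura3-1 ho, and 1 strain stands for each genotype: wild type (WT, 4 libraries), upf1::kanMX6 (upf1, 4 libraries) and dcr1 upf1::kanMX6 (dcr1 upf1, 2 libraries). WT and upf1 cells were also treated with cycloheximide at 100 µg/mL for 15 min (upf1 CHX and WT CHX, with 2 libraries per genotype), and all cells grew in rich medium to mid-log phase at 25 °C. A dcr1 single mutant was not analysed here, so the double mutant can be set only against upf1 and WT.

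The recovered reads per library ranged from 7895089 to 22437334. WT and upf1 libraries carry the numbers 1 to 4 and the other groups 1 and 2. Deviations of WT libraries from their group mean were correlated with those of upf1 libraries. The correlation was 0.39 on average within numbers 1 and 2 or within 3 and 4, and −0.39 across. Deviations from a group mean cancel out, so the value across largely mirrors the value within. Values within each pair of numbers are therefore given beside the upf1 comparison. Of the alpha-cell markers looked for, 3 of 6 were found and all were read in WT, with the a-factor receptor gene STE3 at a density of 1.14 the agglutinin gene SAG1 at 2.08 and HMLALPHA1 at 0.186. Of 7 a-cell markers 4 were found, and the alpha-factor receptor gene STE2 (0.0496), BAR1 (0.0328) and AGA2 (0.0233) lay far below STE3. STE6 stood at 0.149, close to HMLALPHA1. All 4 a-cell markers were called higher in WT CHX (limma, adjusted p under 0.05), where 93.9% of features were, and AGA2 reached a mean density of 4.51 there, above STE3 at 2.92. The genes of the labelled alleles ho and ura3-1 still gave reads in WT, at mean densities of 0.0628 for HO and 0.363 for URA3.

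NAM7 was read in every library with an intact gene and in no library labelled upf1. It lies on chromosome 1 from 1536668 to 1539646 on the minus strand, 2979 bases or 993 codons long, and no other annotated feature overlaps it. The sources used here name no genome build, and the same coordinates stand in the RefSeq table for assembly ASM23734v1. Its normalised read density, in reads per base after scaling of each library, was 0.567, 0.443, 0.482 and 0.595 in the WT libraries and 1.20 and 1.17 in WT CHX. Those values rest on 1601, 1279, 1074 and 1474 reads and on 2584 and 2335 reads. All 8 libraries of upf1, upf1 CHX and dcr1 upf1 held 0 reads. In RNA from whole cultures, fewer cells that express a gene and less of its RNA per cell cannot be told apart.

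The deletion of the Upf1 gene thus showed in each library that should carry it. If as many as 3 reads had escaped sampling over a whole group, the NAM7 level in upf1 was still at least 2219-fold lower than the WT mean. The same bound was at least 2053-fold lower for dcr1 upf1, and at least 2657-fold lower for upf1 CHX when set against WT CHX. With 3 reads allowed in each library the bounds became 484, 1005 and 1313. These bounds cover counting error only.

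**Figure D1:**
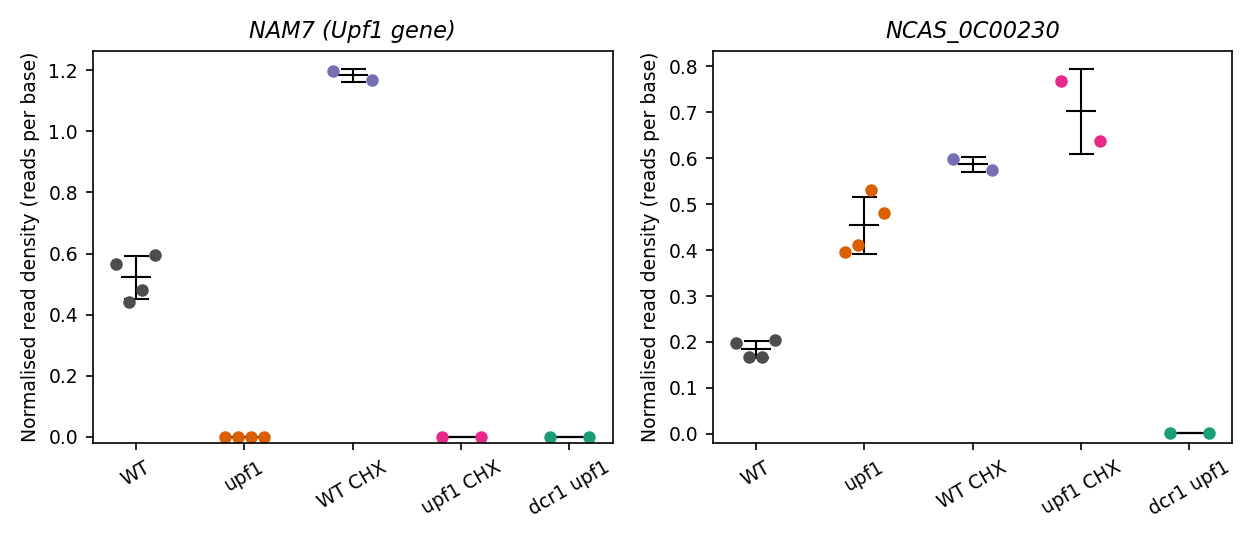
Normalised read density (reads per base, vertical axis) of NAM7, left, and NCAS_0C00230, right, in each of the 14 libraries (points), with the group mean and SD (bars). NAM7 lies at 0 in all 8 libraries without Upf1, and NCAS_0C00230 is close to 0 in the 2 dcr1 upf1 libraries alone.

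In cells that have the gene, NAM7 was a moderately high mRNA. Its mean density was 0.522 ± 0.0710 (SD, n = 4) in WT, above that of 70.9% of the protein-coding genes, and 1.18 ± 0.0203 (SD, n = 2) in WT CHX, above 67.7% of them. The SD among WT libraries was 13.6% of the mean, against 2.74% for the counting error of their reads.

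Cycloheximide raised the NAM7 density on the deposited scaling, by an amount below the median of the protein-coding genes. Both treated libraries lay above all 4 untreated ones, by 2.11-fold for the libraries numbered 1 and by 2.64-fold for those numbered 2. In a limma fit over the 6 WT libraries the log2 fold change was 1.16 (SE 0.16, 95% interval 0.84 to 1.48, adjusted p = 3.99e-08). It was −0.17 and not called (limma, adjusted p = 0.0864) when libraries were scaled on the protein-coding genes (mRNA-ratio scaling). Under that scaling 31.8% of features were called higher and 19.7% lower. On the deposited scaling 94.0% of 7345 features were called higher, the median protein-coding gene rose by 1.36, and 34.6% of 5424 such genes rose less than NAM7. A call is an adjusted p under 0.05 throughout (limma, Benjamini-Hochberg). The scaling therefore decides whether NAM7 is called higher, and a position relative to other mRNAs is the quantity that does not depend on it.

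NCAS_0C00230 lies on chromosome 3 from 25138 to 26970 on the minus strand, the 14th of 586 protein-coding genes counted from the start of the chromosome. It is 1833 bases or 611 codons long, no other annotated feature overlaps it, and RefSeq gives it the same coordinates. Its density was 0.197, 0.168, 0.168 and 0.203 in WT and 0.396, 0.410, 0.530 and 0.480 in upf1. It was 0.598 and 0.575 in WT CHX and 0.767 and 0.636 in upf1 CHX. The 2 dcr1 upf1 libraries stood at 0.000961 and 0.00129, from 4 reads each.

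The 5 groups did not overlap, in the order dcr1 upf1, WT, upf1, WT CHX and upf1 CHX. The place of dcr1 upf1 follows from the choice of the gene. Of all features 39.1% were called higher in upf1 against WT, 93.9% in WT CHX against WT and 83.3% in upf1 CHX against upf1. How many features separate all groups was not counted. WT CHX and upf1 CHX were neighbours whose difference did not pass the test described below. The mean densities were 0.184 ± 0.0190 in WT and 0.454 ± 0.0626 in upf1 (SD, n = 4 each), 0.587 ± 0.0161 in WT CHX and 0.702 ± 0.0925 in upf1 CHX (SD, n = 2 each). Among protein-coding genes of the same libraries those means exceeded 37.2%, 58.2%, 39.0% and 48.3%. NCAS_0C00230 was thus a lower-than-typical mRNA in WT and WT CHX, and of the 5 groups it was above the median mRNA in untreated upf1 cells alone.

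The loss in the double mutant chose this gene, so it is given as a description with no test. The 8 reads of the 2 dcr1 upf1 libraries (exact Poisson 95% interval 3.45 to 15.8, counting error only) correspond to 0.243% of the upf1 level, or 412-fold lower (counting interval 209 to 955). Against WT they correspond to 0.598%, or 167-fold lower (84.8 to 387). Unlike NAM7, which had no read in any library without it, NCAS_0C00230 kept 4 reads in each double-mutant library, and the source of these reads was not tested.

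Being the only mRNA with such a loss was part of how the gene was picked, so the ranking below describes the choice. Of 5392 protein-coding genes with a mean density of at least 0.02 in upf1, NCAS_0C00230 alone had a dcr1 upf1 to upf1 ratio below 0.1, at 0.00248. The next was NCAS_0F04110 at 0.185, which fell from a mean density of 1.08 in upf1 to 0.2002 in dcr1 upf1. It was followed by NCAS_0E00690 at 0.262 and NCAS_0J00110 at 0.272, and the median gene stood at 0.859. Among all 7231 features at that level 1 more was below 0.1, the ribosomal RNA ENSRNA049639889, with a ratio of 0.0121 that rests on upf1 replicate 1: its density was 386 there and 0.453 to 1.16 in the other upf1 libraries.

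**Figure D2:**
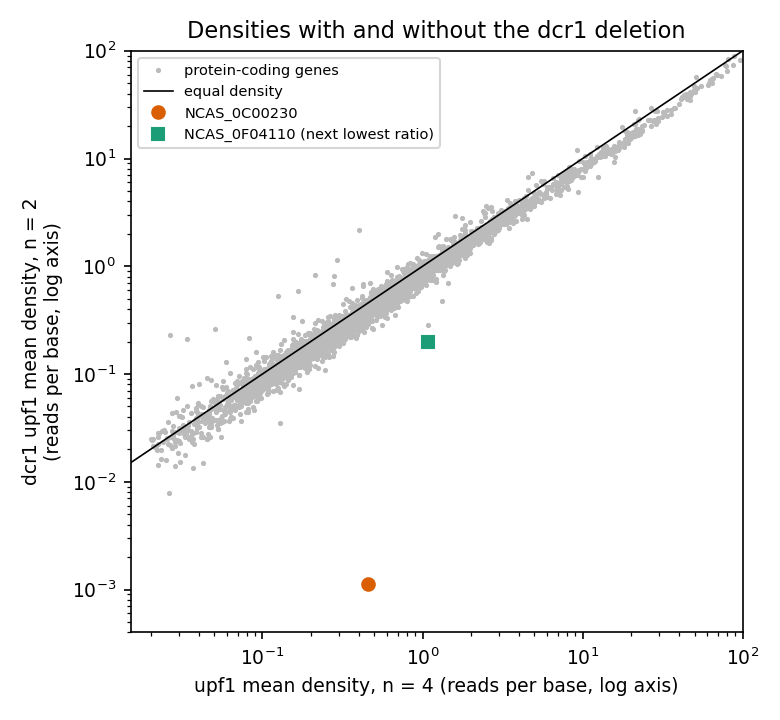
Mean density of each protein-coding gene in upf1 (horizontal, 4 libraries) against dcr1 upf1 (vertical, 2 libraries), both on log axes in reads per base, with the line of equal density. NCAS_0C00230, picked as the only mRNA with such a loss, lies apart from all the others at 0.00248 of its upf1 density. NCAS_0F04110, the next lowest, is at 0.185.

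Loss of Upf1 raised NCAS_0C00230 well beyond the spread between libraries. For libraries of the same number the upf1 density was 2.00, 2.44, 3.16 and 2.36 times the WT density, and every upf1 library lay above every WT library. The limma fit over the 12 libraries of WT, upf1, WT CHX and upf1 CHX gave a log2 fold change of 1.21 (SE 0.12, 95% interval 0.96 to 1.47, adjusted p = 3.94e-07). A level above background in upf1 was part of how the gene was picked, so this comparison is not wholly independent of the choice. The same holds for the cycloheximide response in upf1 and for the interaction, given below.

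That rise stood out against most, but not all, mRNAs. In the same fit 39.1% of 7557 features were called higher and 0.476% lower, so a call alone is common, whereas the median protein-coding gene changed by 0.20 and 90.8% of 5451 changed less than NCAS_0C00230. Under mRNA-ratio scaling, where 29.4% were called higher and 22.1% lower, its log2 fold change was 0.92 and was still called. It was 1.07 within libraries 1 and 2 and 1.36 within libraries 3 and 4. As a share of all recovered reads the gene took 0.00291% to 0.00323% in WT and 0.00657% to 0.00779% in upf1.

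Cycloheximide raised NCAS_0C00230 in WT cells, by an amount somewhat above the median of the protein-coding genes. The treated libraries stood at 3.03 and 3.43 times their same-numbered untreated ones, with no overlap between the groups. The log2 fold change was 1.58 (SE 0.15, 95% interval 1.26 to 1.89, adjusted p = 7.11e-08), in a comparison where 93.9% of features were called higher and the median protein-coding gene rose by 1.35. It fell to 0.29, still called, with mRNA-ratio scaling (34.1% of features higher, 19.4% lower), and to 0.051, not called, when all libraries were centred on the same median (adjusted p = 0.528, the highest of a range down to 2.78e-30 over all alternatives). Of the protein-coding genes 69.0% rose less.

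In upf1 cells, where the gene was already high, cycloheximide changed it less. The upf1 CHX libraries were at 1.94 and 1.55 times the same-numbered upf1 libraries, and they did not overlap the upf1 group. The log2 fold change was 0.61 (SE 0.15, 95% interval 0.30 to 0.92, adjusted p = 0.00142) on the deposited scaling. With mRNA-ratio scaling it was −0.33 and called lower (limma, adjusted p = 0.00133), so its direction depends on the scaling. On the deposited scaling 83.3% of features were called higher, and 17.4% higher and 23.9% lower with mRNA-ratio scaling. The median protein-coding gene rose by 0.87, and 26.5% rose less than NCAS_0C00230. As a share of all recovered reads the gene took 0.00748% and 0.00692% in upf1 CHX, within the range of the untreated upf1 libraries.

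The difference between these cycloheximide responses passed its own test, which uses the upf1 libraries that took part in picking the gene. The interaction of Upf1 loss and cycloheximide was −0.97 on the log2 scale (SE 0.21, 95% interval −1.41 to −0.52, adjusted p = 0.00406). Here 18.6% of features were called lower, the median protein-coding gene stood at −0.38, and 8.86% stood below NCAS_0C00230. With mRNA-ratio scaling the interaction was −0.62 and called, with 12.1% of features lower. Within libraries 1 and 2 it was −0.82. With the replicate number as a block it was −0.97 again, with 2241 features called lower in place of 1403.

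With translation blocked in both genotypes, the presence of Upf1 made a difference that could not be told from 0 on the deposited scaling. The upf1 CHX libraries stood at 1.28 and 1.11 times the same-numbered WT CHX libraries. The log2 fold change was 0.25 (SE 0.17, 95% interval −0.12 to 0.61, adjusted p = 0.525), a range that holds both no change and a rise of 1.52-fold. Only 3.56% of features were called higher and 0.701% lower, and 514 in place of 269 were higher with the replicate block. The median protein-coding gene stood at −0.13, and 88.0% of 5451 such genes stood below NCAS_0C00230. NCAS_0C00230 was called higher with mRNA-ratio scaling (7.79% of features higher, 3.92% lower), at 0.30 (adjusted p = 0.0182, from a range of 0.0182 to 0.854 over all alternatives), and with centred libraries, at 0.27 (adjusted p = 0.0330).

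**Figure D3:**
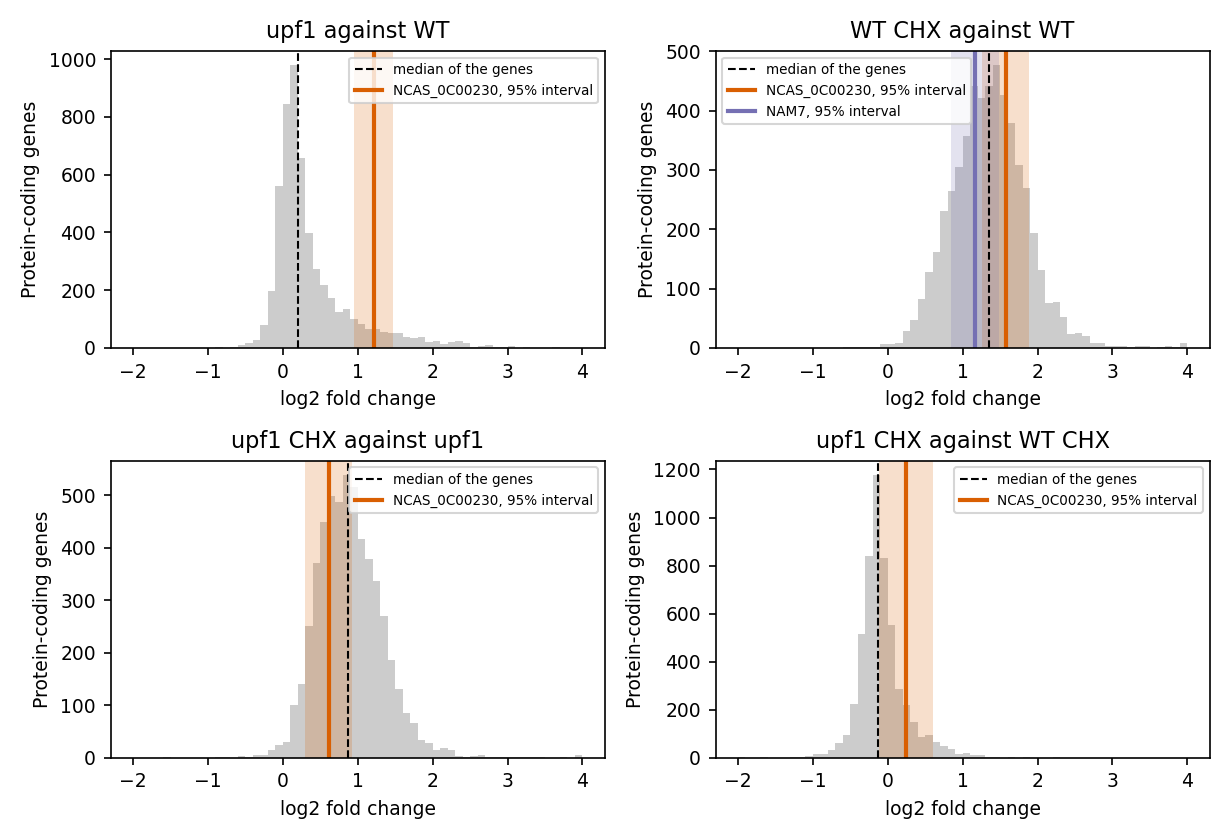
Distribution of log2 fold changes over the protein-coding genes tested (grey, values past either end drawn in the end bins) in 4 comparisons, with their median (dashed) and the values of NCAS_0C00230 and NAM7 (lines, shaded 95% intervals). NCAS_0C00230 stands at 1.21 against a median of 0.20 for upf1 against WT, and fewer log2 units from the median in the other panels. In upf1 CHX against WT CHX 88.0% of the genes still lie below it, against 90.8% in upf1 against WT.

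Several mRNAs followed the same pattern over the 12 libraries. By Pearson's correlation of log2 densities among 5123 protein-coding genes, the most alike were LST8 (0.997), PMS1, NCAS_0H00120, DSE3 and OMA1 (0.996 each). In S. cerevisiae LST8 encodes a subunit of the TOR kinase complexes, PMS1 a mismatch repair protein and OMA1 a mitochondrial inner-membrane protease. LST8 went from a mean density of 0.246 in WT to 0.671 in upf1, 0.965 in WT CHX and 1.15 in upf1 CHX, and it stood at 0.603 in dcr1 upf1. The median gene correlated at 0.785 and 639 reached 0.95, and all genes share these libraries and their scaling, so the values are a description. None of these 5 genes shared the loss in the double mutant, as the choice of NCAS_0C00230 as the only such mRNA required. For NAM7 over the 6 WT libraries the median gene correlated at 0.982 and 4347 of 5077 reached 0.95, so the closest ones, led by SAM2, RQC1 and RFC4, hardly stand apart.

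The other genes of the NMD pathway were also read in every group. Of 5 such genes besides NAM7, 4 were called higher in upf1 than in WT (39.1% of all features): NMD4 by 1.59, the casein kinase gene HRR25 by 1.504, EBS1 by 0.84 and UPF3 by 0.78 on the log2 scale. Their median was 0.84, against 0.25 over all features. All 4 calls held with mRNA-ratio scaling. NMD2, the gene for the partner that bridges Upf1 and Upf3, stood at 0.36 (adjusted p = 0.0674), and was called when WT replicate 1, upf1 replicate 1 or upf1 replicate 2 was left out, at 0.43, 0.45 and 0.43.

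UPF3 densities were 0.206, 0.186, 0.177 and 0.204 in WT and 0.293, 0.312, 0.434 and 0.361 in upf1, so the groups did not overlap. Those of NMD4 were 0.411, 0.292, 0.342 and 0.402 in WT and 0.904, 0.923, 1.47 and 1.29 in upf1. All 5 genes were called higher in WT CHX (median 1.43, against 1.34 over all features), and 3 in upf1 CHX against upf1 (median 0.63, against 0.83), or all 5 with the replicate block. With mRNA-ratio scaling 2 were higher in the former comparison and 3 lower in the latter.

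Few genes on the list for mRNA decapping and 5′ decay, which holds enzymes and other proteins, were called in upf1. Of 18 such genes 2 were called higher, the decapping subunit gene DCP1 by 0.65 and the decapping activator gene EDC2 by 0.52, where 39.1% of all features were higher. The median of the list was 0.10, against 0.25 over all features. With mRNA-ratio scaling DCP1 alone was called higher and 9 of the 18 lower, where 29.4% and 22.1% of all features were. In WT CHX 16 were higher, where 93.9% of all features were, with a median of 0.91 against 1.34. In upf1 CHX against upf1 14 were higher, where 83.3% were, with a median of 0.60 against 0.83. With mRNA-ratio scaling those counts were 1 and 3, and 11 genes were lower in each.

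RNT1, the gene for the conserved nuclear RNase III, was the only member of its list of 3 RNase III and RNA interference names that was found. Its mean density was 0.167 in WT, where 1 library stood at 0.138 and the others at 0.168 to 0.196. Its log2 fold change was −0.031 in upf1 against WT and −0.30 in dcr1 upf1 against upf1, neither of them called on the deposited scaling. With mRNA-ratio scaling it was called lower in upf1 against WT, where 22.1% of all features were. That it kept its reads in the double mutant follows from the choice of NCAS_0C00230 as the only mRNA lost there. RNT1 rose by 1.74 in WT CHX, where 93.9% of features were called higher and the median protein-coding gene rose by 1.35. It was also called higher there with mRNA-ratio scaling, as 34.1% of features were.

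The genes beside NAM7 kept their reads when it was deleted. PMI40, which lies 553 bases away on the same strand and encodes mannose-6-phosphate isomerase, had densities of 2.26, 1.90, 2.00 and 2.38 in WT and 1.87, 1.82, 2.28 and 2.03 in upf1. These groups overlapped, and the log2 fold change was −0.094 (adjusted p = 0.561), or −0.42 and called lower with mRNA-ratio scaling. ISF1, 398 bases away on the other side, stood at 0.26 (adjusted p = 0.240), and at 0.42 and called without upf1 replicate 3. The antisense transcript XUT0140, which begins 268 bases from NAM7 and covers ISF1 on the opposite strand, rose by 1.04 from a WT mean density of only 0.0142.

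Over the 10 nearest protein-coding genes and the 3 non-coding features within 5 kb, 7 were called higher in upf1 and none lower, where 39.1% of all features were higher. With mRNA-ratio scaling 6 were higher and 3 lower (GDH3, NOP16 and PMI40). The highest was SGN1, 3042 bases from NAM7, a gene for a poly(A)-binding protein in S. cerevisiae. It went from 0.286, 0.158, 0.212 and 0.263 in WT to 1.78, 1.75, 1.94 and 2.06 in upf1, a log2 fold change of 2.96 (SE 0.15), and it was still higher in upf1 CHX than in WT CHX, by 1.19. NCAS_0A07760 rose by 0.84 and NCAS_0A07690 by 0.52. The non-coding features SUT021 and CUT0187, both called higher, overlap on the same strand, so their calls are not independent. The cell wall protein gene CWP1 was at 0.28, a call kept without WT replicate 3 or WT replicate 4 and lost without any other single WT or upf1 library (0.23 to 0.29).

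The neighbours of NCAS_0C00230 also kept their reads in the double mutant. ARG81, a regulator of arginine genes in S. cerevisiae, ends 86 bases from it on the opposite strand. Its densities were 0.462, 0.422, 0.542 and 0.505 in upf1 and 0.385 and 0.418 in dcr1 upf1, a log2 fold change of −0.25 (SE 0.14, adjusted p = 0.395). SUT069, a stable unannotated transcript on the same strand 452 bases away, had 0.0859, 0.0747, 0.106 and 0.0971 in upf1 and 0.0527 and 0.0628 in dcr1 upf1. SUT069 had the lowest value among the neighbours, a log2 fold change of −0.51 (limma, adjusted p = 0.395). Its groups did not overlap, and neither did those of ARG81, NCAS_0C00210, NCAS_0C00260 and ERG9. The share of all features whose groups separate in this way was not counted. The median over all features was itself −0.17 in this comparison, so these separations are not read as particular to the neighbours.

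None of the 15 neighbours tested was called in dcr1 upf1 against upf1 by limma, where 0.505% of 7518 features were called. Their log2 fold changes ran from −0.51 to 0.34, 1 of them had an unadjusted p under 0.05, and voom, limma's method for reads, called 0. With mRNA-ratio scaling NCAS_0C00240, the next gene on the higher-coordinate side, was called higher, at 0.53, where 0.545% of features were called higher. Beside NAM7, which is deleted in both groups, the 13 neighbours ran from −0.31 to 0.31, with 0 called by limma or by voom and 0 at an unadjusted p under 0.05. No feature annotated around NCAS_0C00230 lost its reads as that gene did. For mRNAs above background this follows from its choice as the only such mRNA, so only the non-coding features could have differed.

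In upf1 against WT, 9 of those 15 were called higher and none lower, against 39.1% higher over all features. With mRNA-ratio scaling 8 were higher and 2 lower (NCAS_0C00260 and SUT069). ARG81 rose by 1.14, from 0.238, 0.187, 0.187 and 0.224 in WT, and NCAS_0C00250, RAD10 and NCAS_0C00210 rose by 1.91, 1.62 and 1.53. RAD10 encodes a subunit of a DNA repair endonuclease in S. cerevisiae. CUT0563, XUT0426 and CUT0564 rose by 1.26, 0.97 and 0.79, and both CUTs overlap XUT0426, so these values are not independent. XUT0427 and CUT0565, neither of them called, also overlap on the same strand. VPS9 was at 0.33, a call lost without WT replicate 2, 3 or 4 or upf1 replicate 3 or 4 (0.23 to 0.34). The adjacent NCAS_0C00240 was at 0.28 and SUT069 at −0.32, neither called, although SUT069 was called lower with mRNA-ratio scaling (−0.61) and without WT replicate 3 (−0.52). The rise of NCAS_0C00230 in upf1 was therefore shared with several genes on its flanks and not with the features directly on its higher-coordinate side.

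**Figure D4:**
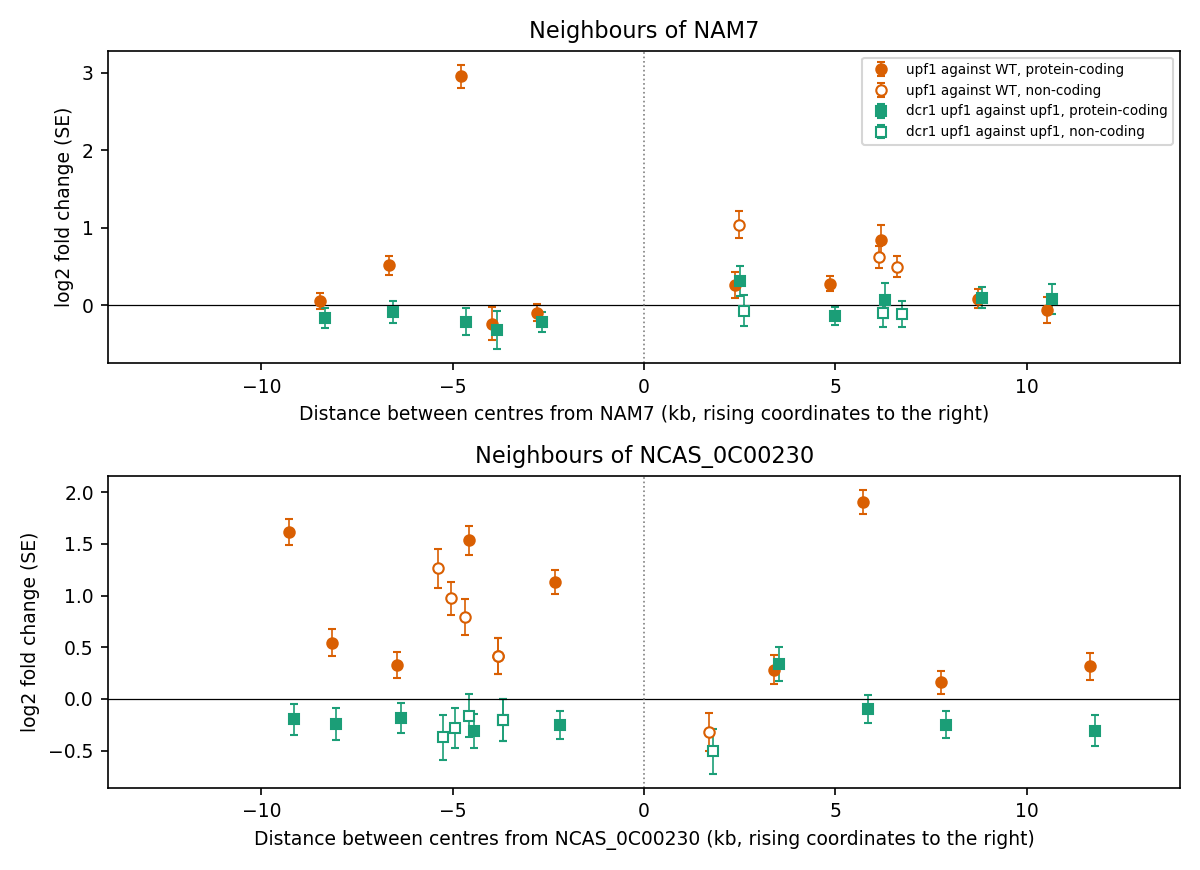
Log2 fold change (SE bars) of the features around NAM7, top, and NCAS_0C00230, bottom, against the distance between gene centres in kb, for upf1 against WT (circles) and dcr1 upf1 against upf1 (squares, set slightly to the right); open symbols are non-coding. SGN1 at 2.96 is the highest circle, and the squares stay between −0.51 and 0.34.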

How the data were processed

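The deposited table holds a normalised read density (signal) per feature and library, made by the authors. HISAT2 2.2.0, featureCounts 2.0.0, DESeq2 and Trim Galore are listed, without their roles, in the submitters' processing notes. Genome build, annotation and the basis of the size factors: not given in the sources used here. Every value times feature length was a whole multiple of 1 step per library (100%, within 0.001), which gave the recovered reads. Spike-in RNA was not analysed here. After removal of 259 repeated lines 8343 features were left.

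Groups came from sample titles. The labels do not say whether replicates are separate cultures, so p-values measure the spread between libraries, which may be technical. Densities were tested in R 4.3.3 with limma 3.58.1 (trend, robust, statmod 1.5.0) on log2(density + 0.02), which understates changes of low genes, over features with mean density of at least 0.02, with Benjamini-Hochberg adjustment. Fits used 12 libraries, 6 for NAM7 and all 14 for dcr1 upf1 against upf1. mRNA-ratio scaling uses the median of ratios over protein-coding genes. The procedure was tested on simulated data.

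The members, the gene lists (NMD factors, decapping and 5′ decay, RNase III and RNA interference, mating type markers) and the tests were chosen with earlier results of these data known. Named genes are the members, the 5 protein-coding genes on each side, the non-coding features within 5 kb, called list members and the 5 genes with the most similar pattern. Deviations of same-numbered WT and upf1 libraries correlated at 0.232 or more and at 0.370 on average. The average was 0.394 over all pairs within numbers 1 and 2 or within 3 and 4, and 3 of 8 libraries matched their own number best. The numbers thus set 1 and 2 apart from 3 and 4 and do not show pairs. The main fits held no term for them.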

Additional observations from a re-analysis of the deposited data

Results flagged for a closer look

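The cycloheximide response of NCAS_0C00230 in upf1 differed from that in WT by −0.97 on the log2 scale (limma interaction, adjusted p = 0.00406). The response in upf1 was the lower one for the libraries numbered 1 and for those numbered 2, the only numbers with treated libraries. The level in upf1 was part of how the gene was picked, so the difference is not wholly independent of the choice. Among the NMD genes the same difference was −0.80 for UPF3 (adjusted p = 0.0178), −1.11 for NMD4 (0.01005), −0.69 for EBS1 (0.0185) and −1.45 for HRR25 (0.00103), where 18.6% of all features were called lower. NMD2, at −0.65 (adjusted p = 0.0887), was not called. With mRNA-ratio scaling EBS1 stood at −0.32 and lost its call, and 3 of the 5 genes were lower.

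Among 84 groups of 4 libraries examined for a single library far from the rest, 3 held one, and chance marks about 1 in 20. The gene NCAS_0A07760, a neighbour of NAM7, stood at a density of 0.00600 in WT replicate 3 and at 0.02004 to 0.0221 in the other WT libraries. The ribosomal RNA ENSRNA049639889 stood at 5.51 in WT replicate 1 against 0.417 to 0.938 in the others, and at 386 in upf1 replicate 1 against 0.453 to 1.16. What set these libraries apart was not tested.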

How the results depend on the processing

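The log2 fold change of NCAS_0C00230 kept its direction and call in upf1 against WT and in the interaction under every alternative run. Left out 1 library at a time, it ran from 1.14 to 1.27 in upf1 against WT, 1.54 to 1.62 in WT CHX against WT, 0.48 to 0.74 in upf1 CHX against upf1, 0.11 to 0.38 in upf1 CHX against WT CHX and −1.10 to −0.83 in the interaction, and NAM7 ran from 1.09 to 1.22 in WT CHX.

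For mRNA-ratio scaling and for centred libraries, NCAS_0C00230 stood at −0.33 and −0.39 in upf1 CHX against upf1 and at 0.30 and 0.27 in upf1 CHX against WT CHX, and centring gave 0.051 in WT CHX against WT. NAM7 in WT CHX stood at −0.17 and −0.36. In the same order the features called higher numbered 2577 and 1153 in WT CHX against WT (main 7096), 2339 and 1066 over 6 libraries (6902), 1313 and 989 in upf1 CHX against upf1 (6298) and 589 and 628 in upf1 CHX against WT CHX (269), and 914 and 524 were lower in the interaction (1403). Centring left 1535 higher in upf1 against WT (2954). The median protein-coding gene moved from 0.20 to −0.10 and −0.30 in upf1 against WT. NMD factors higher numbered 2 and 0 in WT CHX and 0 and 0 in upf1 CHX against upf1, and decapping genes 1 and 0 in upf1, 1 and 0 in WT CHX and 3 and 3 in upf1 CHX. In upf1 against WT, GDH3 stood at −0.27 and −0.44, CWP1 at −0.039 and −0.22 and NCAS_0C00260 at −0.16 and −0.34, and with centring YPF1 was at −0.41, CUT0187 at −0.0018, VPS9 at −0.17, NCAS_0C00240 at −0.22 and ERG9 at −0.18. In dcr1 upf1 against upf1, 1 neighbour of NCAS_0C00230 was called under each of these scalings and within replicates 1 and 2.

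The count higher in upf1 CHX against WT CHX was 505 with a pseudocount of 0.1, 824 with the compared groups alone, 755 within replicates 1 and 2 and 514 with the replicate block, and 90, 130, 75 and 149 without WT CHX replicate 1 or 2 or upf1 CHX replicate 1 or 2. The interaction count was 2241 with the replicate block, and 870, 725 and 625 without WT CHX replicate 1, WT CHX replicate 2 and upf1 CHX replicate 2. Both the block and replicates 1 and 2 alone gave 5 NMD factors higher in upf1 CHX against upf1. With the replicate block NCAS_0C00230 stood at 1.21, 1.66, 0.69, 0.25 and −0.97 in the order above and NAM7 at 1.21, with no other call of these changed. Replicates 1 and 2 alone called 90 features in dcr1 upf1 against upf1 (38). A filter at 0.1 left 4 neighbours of each gene higher in upf1, and for NAM7 centring left 2 and replicates 3 and 4 alone 4. The bounds for NAM7 with 3 reads allowed per library were 484, 1005 and 1313. The cause of these shifts was not tested, apart from the fewer features a filter leaves.

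Leaving out 1 library gave 2604 to 3003 features higher in upf1 against WT, 6716 to 7140 in WT CHX against WT (6473 to 7078 over 6 libraries), 4887 to 6475 in upf1 CHX against upf1, 75 to 149 in upf1 CHX against WT CHX, 625 to 1585 lower in the interaction and 28 to 41 called in dcr1 upf1 against upf1. The neighbours higher in upf1 numbered 6 to 7 and 8 to 12, with 0 to 0 called in dcr1 upf1. NMD factors higher numbered 4 to 5, 5 to 5 and 3 to 4, and decapping genes 2 to 2, 15 to 16 and 11 to 18, in upf1, WT CHX and upf1 CHX. Over 38 values of single named genes and 744 settings, 669 kept direction and call, 30 lost a call, 34 gained one and 11 turned.

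The planned count models were not run, since the deposited unit is a density; voom on recovered reads was added after seeing the data and changed no call of NCAS_0C00230 or NAM7. The treated and double-mutant groups have 2 libraries each, and a lone library left in a group is assumed to vary like the others.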

Other observations

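On the higher-coordinate side of NCAS_0C00230, 2 features differed between the genotypes after cycloheximide. SUT069, the non-coding transcript 452 bases away on the same strand, stood at densities of 0.373 and 0.410 in WT CHX and 0.174 and 0.152 in upf1 CHX, and NCAS_0C00240, the next protein-coding gene on the opposite strand, at 0.424 and 0.394 against 0.195 and 0.188. In both, the upf1 CHX level was the lower one, by log2 fold changes of −1.17 (limma, SE 0.26, adjusted p = 0.0149) and −1.02 (SE 0.20, adjusted p = 0.00658). On the deposited scaling 0.701% of features were called lower. With mRNA-ratio scaling the values were −1.05 and −0.91, where 3.92% were called lower. Of the 15 neighbours tested, these 2 were called lower and 1 higher on the deposited scaling, and 2 lower and 3 higher with mRNA-ratio scaling. The interaction of Upf1 loss and cycloheximide was called for NCAS_0C00240 (−1.30, adjusted p = 0.00148) and not for SUT069 (−0.85, adjusted p = 0.0731). NCAS_0C00230, which lies beside them, was not lower in this comparison.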
